A study of Mus musculus with 16 samples.

Results

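Thymic epithelial cells form the stroma in which T cells mature, and 7 transcription factors known from their development and upkeep were followed here across sorted cells of the mouse thymus. The genes are Foxn1, Pax1, Pax9, Hoxa3, Ehf, Elf3 and Trp63, taken by symbol from the platform annotation of the arrays. Each had 1 probe set, so they are 7 of the 8251 genes and 7 of the 12488 probe sets measured, and all 7 passed the filter on low signals. The series holds 16 arrays of total RNA, 2 for each of 8 groups. In 4 groups, epithelial cells of the medulla (mTEC) from mice labelled AIRE knockout or from wild-type mice had been sorted as CD80hi or CD80lo, by the costimulatory protein CD80, which more mature cells carry at higher levels. The other groups, all wild type, were unfractionated mTEC, cells of the cortical epithelium (cTEC), dendritic cells and macrophages of the thymus, and the labels name no sort by CD80 for them. The labels give neither age, strain nor the knockout allele, and do not give the animals behind the samples of a group, so the p-values measure only the spread between these samples, which may be technical.

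Foxn1, a forkhead factor whose loss gives the nude, athymic mouse, drives the differentiation of both cortical and medullary epithelium. Hoxa3, Pax1 and Pax9 act earlier, in the endoderm of the pharyngeal pouch from which the thymus and the parathyroid arise. Trp63 encodes p63, a relative of p53 that maintains the proliferative capacity of stratified and thymic epithelium, and Ehf and Elf3 are ETS-domain factors largely restricted to epithelia.

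The promoter sequences of 5 of the 7 genes were matched in RefSeq (build GRCm38.p6), each from 250 bases before to 50 bases after a transcription start. Those of Pax1, which was lower in CD80hi cells, of Hoxa3, whose signals lay in the same order there, and of Elf3, which was higher in medullary cells, are printed. Capitals mark GACGC, the core recognised by Foxn1, on either strand (GCGTC where it lies on the other strand). These letters include a CG pair.
Pax1, chr2:147364744-147365043, + strand: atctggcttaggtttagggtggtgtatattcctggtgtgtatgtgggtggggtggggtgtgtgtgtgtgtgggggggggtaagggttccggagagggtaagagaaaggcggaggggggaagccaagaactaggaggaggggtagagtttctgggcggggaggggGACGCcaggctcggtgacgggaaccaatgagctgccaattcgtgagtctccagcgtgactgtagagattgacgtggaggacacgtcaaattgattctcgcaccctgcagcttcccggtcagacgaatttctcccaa
Hoxa3, chr6:52213018-52213317, - strand: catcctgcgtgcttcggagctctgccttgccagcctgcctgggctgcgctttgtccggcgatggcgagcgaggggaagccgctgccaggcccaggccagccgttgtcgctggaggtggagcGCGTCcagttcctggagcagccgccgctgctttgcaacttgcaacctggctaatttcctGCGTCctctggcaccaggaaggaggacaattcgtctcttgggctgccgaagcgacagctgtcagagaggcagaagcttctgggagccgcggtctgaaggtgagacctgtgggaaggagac
Elf3, chr1:135258423-135258722, - strand: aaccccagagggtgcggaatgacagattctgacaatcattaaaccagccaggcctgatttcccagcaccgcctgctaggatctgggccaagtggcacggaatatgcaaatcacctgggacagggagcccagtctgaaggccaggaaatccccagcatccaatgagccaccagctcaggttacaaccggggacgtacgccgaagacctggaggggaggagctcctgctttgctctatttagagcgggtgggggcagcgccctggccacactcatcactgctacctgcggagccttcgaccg
The core occurred 1 time in the Pax1 window and 2 times in the Hoxa3 window, and had 0 matches in those of Elf3, Foxn1 and Pax9. Of 27025 promoters of the same length, 27.4% held it at least once and 8.3% at least 2 times. The Hoxa3 window held 20 CG pairs and the Pax1 window 13, against a median of 7 over all promoters, and 26.8% and 38.5% of promoters held at least as many. The ETS core GGAA was found 5 times in the Pax1 window, 5 times in the Hoxa3 window and 4 times in the Elf3 window, and 95.9% of promoters held it. These matches are letters only and say nothing of binding.

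The labels were checked against marker genes. Aire, the gene named by the knockout and a marker of mature mTEC, gave 1589.1 and 1385.3 in knockout CD80hi against 1828.6 and 1704.5 in wild-type CD80hi cells, and 127.3 and 83 in knockout CD80lo against 195.6 and 94.4 in wild-type CD80lo cells. Where its probes lie relative to the deletion is not given, so these values do not check the genotype. Enpep, a cortical surface peptidase, gave 999.3 and 789.9 in cTEC, against at most 171 in any other array. Krt5 and Krt14, keratins of medullary epithelium, did not exceed 18.2 and 15.1 on any array, so these probe sets could not mark mTEC. The first macrophage array also carried epithelial signal. The keratin Krt8 read 1212.6 there and 172.2 on the second macrophage array, and the 6 measured cortical markers summed to 5549.2 and 1885.2. It also had more thymocyte signal, with 13 measured markers summing to 7391.5 against 3160.8 on the second. For Pax1, Elf3, Ccl25, Perp and Lamb3, values against myeloid cells are also given without this array. The 2 knockout CD80lo arrays differed as well. On the first, 7 measured B cell markers summed to 7428.1 and 10 markers of thymic epithelium to 10517.9, against 532 and 6882.5 on the second. Of the 9319 probe sets tested, limma (adjusted p under 0.05) called between 30 and 2390 in the comparisons below. With so few arrays, groups often lie apart. The arrays of the 2 sides did not overlap for 62.9% of these probe sets in wild-type CD80hi against CD80lo cells. This share was 46.1% in the knockout, 54.3% in mTEC against cTEC, and 35.2% and 25.1% in mTEC and cTEC against myeloid cells. In bulk samples, fewer cells that express a gene and less RNA per cell cannot be told apart.

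**Figure D1:**
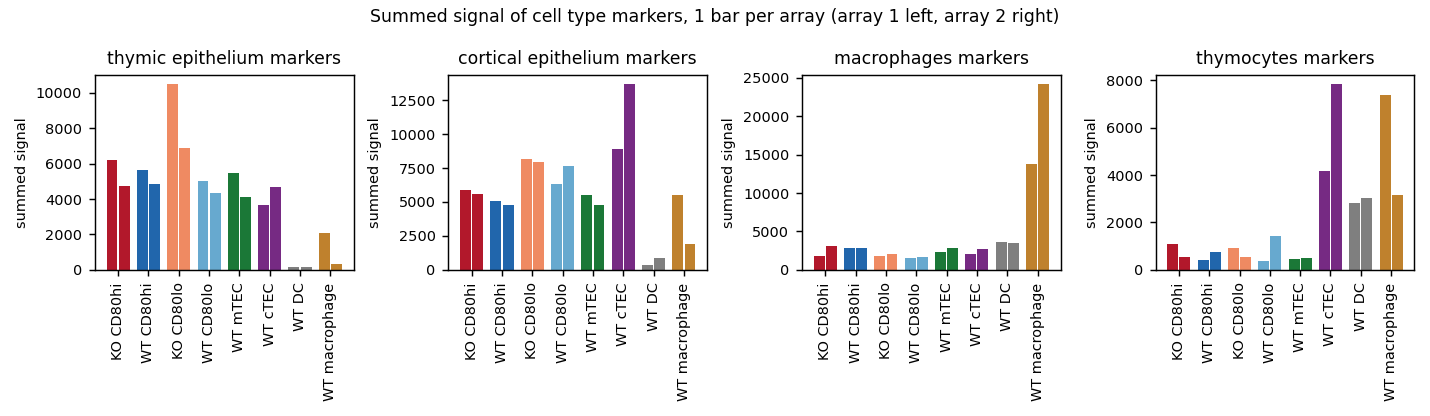
Summed array signal of markers of thymic epithelium, cortical epithelium, macrophages and thymocytes (y axis, linear) in the 8 groups (x axis), with 1 bar per array. The first macrophage array stands above the second for both epithelial lists and for thymocytes, and below it for macrophage markers.

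Foxn1 was dim but present on all epithelial arrays. It gave signals of 38.2 and 24.9 in knockout CD80hi, 24.9 and 18.3 in wild-type CD80hi, 23.8 and 22.9 in knockout CD80lo and 18.9 and 21.2 in wild-type CD80lo cells. Unfractionated mTEC gave 18.7 and 36.9 and cTEC 42.2 and 33.7, whereas the dendritic cell arrays read 2.8 and 2.1 and those of macrophages 10.3 and 13.5. All 12 epithelial arrays lay above all 4 myeloid arrays. The share of all probe sets that split in this way was not computed, here or for Ehf and Trp63 below. For mTEC or cTEC alone against the myeloid arrays, 35.2% and 25.1% of tested probe sets did not overlap, in either direction. In order of mean level, cTEC came first, followed by knockout CD80hi, unfractionated mTEC, knockout CD80lo, wild-type CD80hi and wild-type CD80lo cells, and each of these overlapped its neighbour. A gap without overlap opened only between wild-type CD80lo cells and macrophages and again between macrophages and dendritic cells. Unfractionated mTEC and cTEC did not differ past the threshold, with a difference on the log2 scale of -0.44 (95% interval -1.22 to 0.33, adjusted p = 0.523).

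Pax1 had the widest range of mean log2 signal among the epithelial groups of the 7 factors. Signals were 190.8 and 162.1 in unfractionated mTEC, against 1349.7 and 1221.9 in cTEC. The CD80hi cells gave 63.9 and 71.8 in the knockout and 90 and 90.9 in the wild type, and the CD80lo cells 247.1 and 344.4 in the knockout and 375.8 and 278.4 in the wild type. The cTEC arrays stood apart from every other array. Knockout and wild-type CD80lo cells overlapped, and unfractionated mTEC lay between the CD80hi and the CD80lo cells of both genotypes. Dendritic cells gave 24.4 and 20.2, the lowest signals of this gene. Macrophages split, with 360.8 on the first array, the one with epithelial markers, and 91.8 on the second.

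Pax9, a paralogue of Pax1 that acts with it in the pouch, was dim. Knockout CD80hi cells gave 10.9 and 20.1, wild-type CD80hi cells 17.5 and 29.1, knockout CD80lo cells 13.1 and 18.7 and wild-type CD80lo cells 31.1 and 32.4. Signals were 9.4 and 13.1 in unfractionated mTEC and 13.1 and 23.2 in cTEC. The dendritic cell arrays read 1.9 and 1.5 and the macrophage arrays 2.6 and 0.8, all below the constant of 4.8 added before log2. Wild-type CD80lo cells did not overlap with the group next in order, the wild-type CD80hi cells, and below these each epithelial group overlapped the next. Between these CD80 fractions 62.9% of all tested probe sets did not overlap, and limma did not call Pax9 (adjusted p = 0.633). Pax9 exceeded the filter level of 17.3, the 40th percentile of all values, on 7 of 16 arrays.

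Hoxa3 exceeded that level on 3 of 16 arrays and its epithelial and myeloid signals overlapped. CD80hi cells gave 0.9 and 2.1 in the knockout and 1.9 and 4.9 in the wild type. CD80lo cells gave 16.4 and 11.1 in the knockout and 21.8 and 19.3 in the wild type. Unfractionated mTEC gave 2.9 and 8.7, cTEC 7.8 and 11.9, the dendritic cell arrays 5.8 and 7.8, and those of macrophages 18.1 and 1.9. The wild-type CD80lo arrays exceeded every other array, and both CD80lo groups lay above both CD80hi groups. From knockout CD80lo cells down the order, each group overlapped the next.

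**Figure D2:**
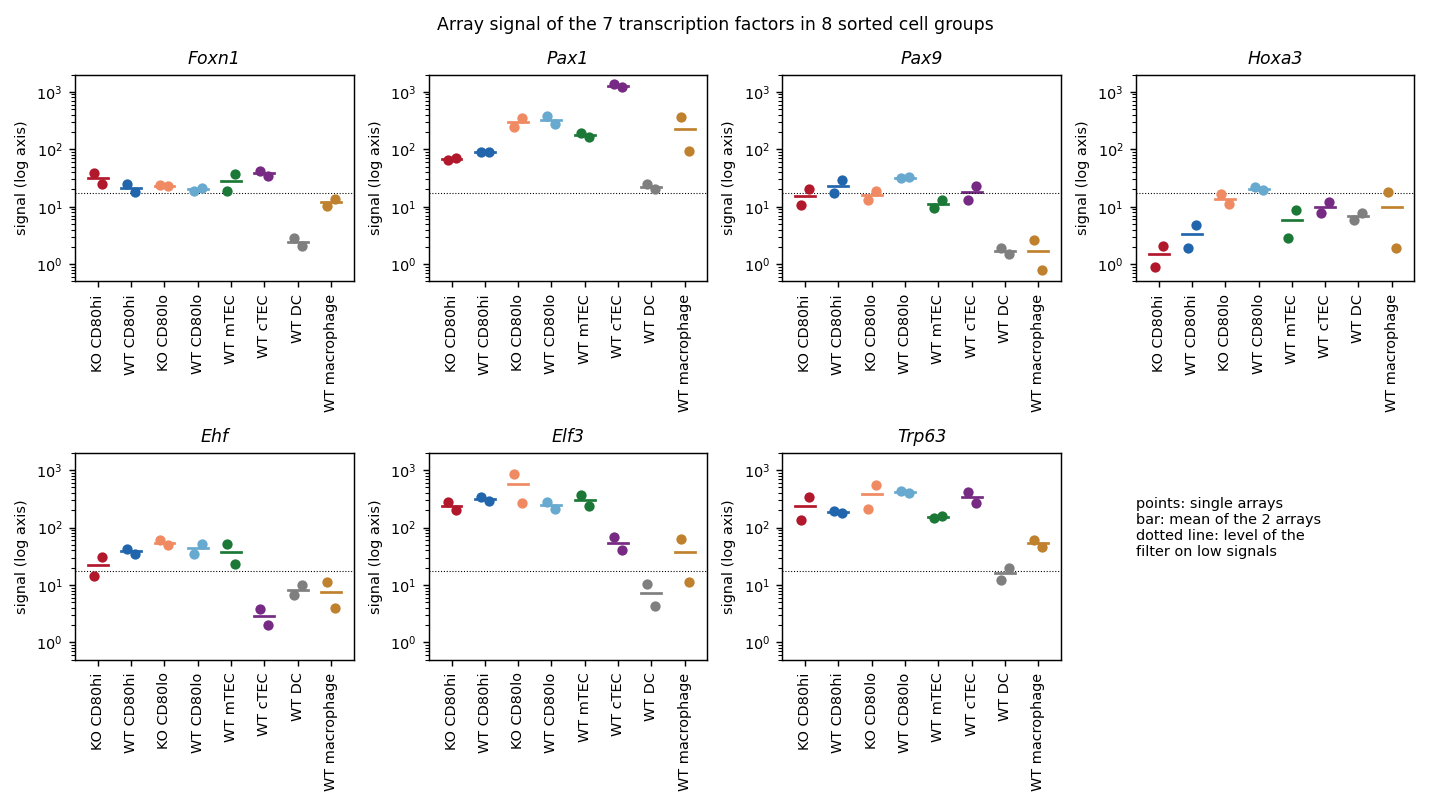
Array signal (log axis) of each factor in the 8 groups, with 1 point per array and a bar at the mean of 2. Pax1 was highest in cTEC, Ehf and Elf3 stood higher in all mTEC groups than in cTEC, and Hoxa3 lay near or below the dotted filter level of 17.3 throughout.

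The ETS factors showed another pattern. Ehf gave 14.6 and 30.8 in knockout CD80hi, 42.1 and 35.1 in wild-type CD80hi, 60.0 and 49.2 in knockout CD80lo and 35.3 and 51.8 in wild-type CD80lo cells. Unfractionated mTEC gave 51.9 and 23.6, against 3.8 and 2.0 in cTEC, 6.6 and 9.9 in dendritic cells and 11.1 and 4.0 in macrophages. Thus 10 of 12 epithelial arrays exceeded all myeloid ones, and the cTEC arrays were the exceptions, at the lowest place in the order.

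Elf3 gave 275.1 and 201.1 in knockout CD80hi, 339.5 and 287.7 in wild-type CD80hi, 867.8 and 266.6 in knockout CD80lo and 276.7 and 213.8 in wild-type CD80lo cells. The signals were 364.4 and 238.5 in unfractionated mTEC and 67.6 and 41.0 in cTEC. Dendritic cells gave 10.4 and 4.3, and macrophages 64.4 and 11.4, again with the first macrophage array higher. All mTEC groups overlapped their neighbours, and a gap separated them from cTEC, which overlapped with macrophages.

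Trp63 was present throughout the epithelium, with 135.0 and 342.2 in knockout CD80hi, 193.2 and 177.2 in wild-type CD80hi, 209.1 and 550.0 in knockout CD80lo and 435.7 and 406.8 in wild-type CD80lo cells. Unfractionated mTEC gave 148.6 and 160.1 and cTEC 418.3 and 268.4. These mTEC arrays lay below those of both wild-type CD80 fractions, as they also did for Pax9 but not for Pax1. The reason was not tested. The dendritic cell arrays read 12.2 and 19.7 and those of macrophages 61.6 and 46.2, so that all 12 epithelial arrays lay above all myeloid ones. The knockout arrays numbered 2 were higher than those numbered 1 in both CD80 fractions.

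Medullary and cortical epithelium were compared between unfractionated wild-type mTEC and cTEC. Ehf and Elf3 were higher in mTEC and Pax1 was lower, while Foxn1, Pax9, Hoxa3 and Trp63 did not pass the threshold. Pax1 had a log2 fold change, here a difference of group means of log2(signal + 4.8) given ± its standard error from limma, of -2.84 ± 0.46 (adjusted p = 0.000681). For Ehf it was 2.39 ± 0.44 (adjusted p = 0.00168) and for Elf3 2.38 ± 0.62 (adjusted p = 0.017). The 2 higher members stand beside 11.1% of all probe sets called higher, and the 1 lower member beside 4.25% called lower (15.4% in all). Trp63 had -1.10 ± 0.47 (95% interval -2.11 to -0.08, adjusted p = 0.156), and passed without both knockout arrays numbered 1, a choice made after seeing the data (adjusted p = 0.0342). The Elf3 call was lost without cTEC array 2 or mTEC array 1 (adjusted p up to 0.129), and the Ehf value was 1.40 with a constant of 17.3 and 3.25 with a constant of 1, the cTEC signals lying below 4.8. Thymocyte markers also differed, with a summed signal of 462.9 and 507 in mTEC against 4174 and 7848.7 in cTEC, and 11 of 13 were lower in mTEC. Their part in these results was not tested.

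Epithelial cells were set against the mean of the dendritic cell and macrophage groups, both comparisons sharing these 4 myeloid arrays. In unfractionated mTEC, 6 of the 7 factors were higher than the myeloid mean, against 17.1% of all probe sets higher and 8.55% lower (25.6% in all). Elf3 was highest in fold change (3.92 ± 0.54, adjusted p = 7.74e-05), followed by Trp63 (2.21 ± 0.41), Ehf (1.70 ± 0.38), Foxn1 (1.51 ± 0.31), Pax1 (1.34 ± 0.40) and Pax9 (1.30 ± 0.34). Hoxa3 had -0.23 ± 0.45 (adjusted p = 0.782). The Foxn1 and Pax9 calls were lost without mTEC array 2 (adjusted p = 0.0698 and 0.114), that of Ehf without mTEC array 1 (0.104) and that of Pax1 without either mTEC array (up to 0.152) or when only these groups were fitted (0.13). Without macrophage array 1, Elf3 was at 4.44 and Pax1 at 1.82. Without macrophage array 2 Elf3 was at 3.39 and Pax1 at 0.86. Against dendritic cells alone, a comparison added after seeing the data, Pax1 was at 2.74. Macrophages and mTEC overlapped for Pax1, with mean log2 values of 7.55 and 7.50, so Pax1 in mTEC did not exceed that in macrophages.

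In cTEC, 4 of the 7 factors were higher than in myeloid cells, against 9.02% of all probe sets higher and 6.62% lower (15.6% in all). Pax1 was higher by 4.18 ± 0.40 on the log2 scale (adjusted p = 7.92e-06), Trp63 by 3.30 ± 0.41 (5.9e-05), Foxn1 by 1.96 ± 0.31 (0.000487) and Pax9 by 1.79 ± 0.34 (0.00176). These 4 calls held with any single array left out, and without macrophage array 1 Pax1 was at 4.66. Without macrophage array 2 Pax1 was at 3.70. Elf3 had 1.54 ± 0.54 (adjusted p = 0.0722). It passed with the replicate number as a block among the unfractionated groups (0.0169) and against dendritic cells alone (0.0185). With a constant of 17.3 (1.03, limma adjusted p = 0.164) or of 1 (1.85, 0.051) it did not pass. Without macrophage array 1 it was at 2.06, and without macrophage array 2 at 1.01. Ehf had -0.69 ± 0.38 (adjusted p = 0.294). Pax9, whose myeloid signals were below the constant, moved between 0.89 and 2.82 in cTEC and between 0.58 and 2.21 in mTEC with constants of 17.3 and 1. Foxn1 was at 1.20 in cTEC and 0.88 in mTEC with the larger constant, which likewise gave 1.09 for Ehf in mTEC.

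**Figure D3:**
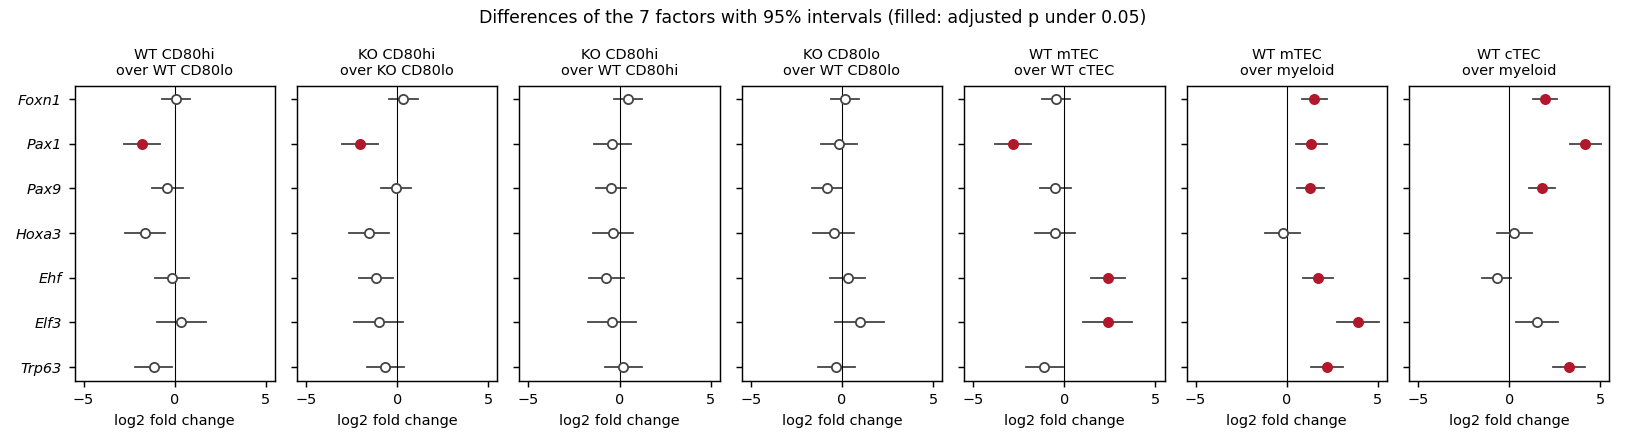
Log2 fold change (x axis) of each factor in 7 comparisons, with 95% intervals; filled points passed an adjusted p of 0.05. Pax1 lay left of 0 in both CD80hi against CD80lo comparisons and in mTEC against cTEC, and no factor passed between genotypes.

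The CD80 fractions compare more with less mature mTEC. Pax1 was lower in CD80hi cells of both genotypes. It had a log2 fold change of -2.03 ± 0.46 in knockout cells (adjusted p = 0.00928) and of -1.79 ± 0.46 in wild-type cells (adjusted p = 0.0192). This was 1 of 7 factors lower and 0 higher in each genotype by limma (3 of 7 at an unadjusted p under 0.05 in each). Of all probe sets, 6.87% were lower and 5.93% higher in knockout CD80hi cells (12.8% in all), and 4.74% lower and 7.98% higher in wild-type CD80hi cells (12.7% in all). The wild-type call was lost without any 1 of its 4 arrays (adjusted p up to 0.153, log2 values from -2.00 to -1.57), and the knockout call without knockout CD80hi array 1 or knockout CD80lo array 2 (up to 0.0699) or without both knockout arrays numbered 1 (0.102).

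Hoxa3 did not pass in either genotype (adjusted p = 0.0659 in knockout and 0.0505 in wild-type cells). It had passed the filter only through the wild-type CD80lo arrays and 1 macrophage array, and its CD80hi signals of at most 4.9 were near or below the constant, so the size of its difference depends on that constant. The log2 value was -1.55 in knockout and -1.65 in wild-type cells with the constant of 4.8, -2.58 and -2.38 with a constant of 1, and -0.72 and -0.87 with a constant of 17.3. With either macrophage array left out the log2 values stayed at -1.55 in knockout and -1.65 in wild-type cells. Without macrophage array 1, only the wild-type CD80lo arrays, the higher side of the wild-type comparison, carried its probe set past the filter. Hoxa3 did not pass with a constant of 1 (limma adjusted p = 0.0551 in knockout and 0.0793 in wild-type cells). With a constant of 17.3 it did not pass in knockout cells (0.0851) but did in wild-type cells (0.0356). In wild-type cells it also passed with quantile normalisation (0.0415), no filter (0.0492) and the replicate block (0.044), among others. Trp63 had -0.65 ± 0.47 in knockout (adjusted p = 0.462) and -1.17 ± 0.47 in wild-type cells (adjusted p = 0.139). It passed in wild-type cells when only these groups were fitted (0.00239) and without both knockout arrays numbered 1 (0.029). Ehf had -1.17 ± 0.44 in knockout and -0.14 ± 0.44 in wild-type cells (adjusted p = 0.106 and 0.919). Elf3 had -1.02 ± 0.62 in knockout and 0.36 ± 0.62 in wild-type cells (adjusted p = 0.356 and 0.834). The 95% intervals of Foxn1 were -0.43 to 1.12 in knockout and -0.70 to 0.85 in wild-type cells, and those of Pax9 -0.89 to 0.78 and -1.25 to 0.43.

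Fibroblast markers were lower in the same direction as Pax1. The 11 measured markers summed to 1086.7 and 1168.5 in knockout CD80hi cells against 5940.8 and 4955.8 in knockout CD80lo cells, and to 958.1 and 895.9 in wild-type CD80hi cells against 5015.7 and 4395.9 in wild-type CD80lo cells. Of the 11 tested, 5 were lower in the knockout and 6 in the wild type. Endothelial markers summed to 263.5 and 268.6 in knockout CD80hi against 255 and 832.3 in knockout CD80lo cells, and to 247.7 and 253.8 in wild-type CD80hi against 1029.7 and 593.4 in wild-type CD80lo cells. Markers of dendritic cells ran the other way. The 9 measured summed to 6213.1 and 3565.5 in knockout CD80hi against 2256.6 and 1494.7 in knockout CD80lo cells, and to 5015.6 and 5148.2 in wild-type CD80hi against 2528.3 and 2026.8 in wild-type CD80lo cells, and 4 of 9 were higher in the knockout and 1 of 9 in the wild type. The 12 macrophage markers summed to 1849.7 and 3074.5 in knockout CD80hi against 1786.5 and 2023.7 in knockout CD80lo cells, and to 2884.9 and 2853.1 in wild-type CD80hi against 1598 and 1635.2 in wild-type CD80lo cells. Of these 12, 2 were higher and 1 lower in the knockout and 4 higher in the wild type. Beside the counts of these lists stand 6.87% of all probe sets lower and 5.93% higher in the knockout. In the wild type, 4.74% were lower and 7.98% higher. The part of these markers in the CD80 values of the factors and of the listed genes below, Cd40 among them, was not tested.

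Between genotypes, 0 of the 7 factors passed in CD80hi cells, where limma called 3.05% of all probe sets (0.172% higher, 2.88% lower), and 0 passed in CD80lo cells, where it called 0.322% (0.279% higher, 0.0429% lower). At an unadjusted p under 0.05 the counts were also 0 and 0. In CD80hi cells, knockout minus wild type was 0.45 for Foxn1 (95% interval -0.33 to 1.22), -0.39 for Pax1 (-1.39 to 0.60), -0.48 for Pax9 (-1.31 to 0.36) and -0.36 for Hoxa3 (-1.47 to 0.75). It was -0.72 for Ehf (-1.66 to 0.23), -0.40 for Elf3 (-1.73 to 0.93) and 0.21 for Trp63 (-0.80 to 1.23). The intervals of all 7 reach past a change of 1 log2 unit in 1 direction or the other. Among the pathway lists below, 1 gene passed in CD80hi cells, the p63 list's Igfbp3 (-2.05), a secreted protein that binds insulin-like growth factors, and 0 genes passed in CD80lo cells by limma. The Igfbp3 call was lost without the first knockout CD80hi array or either wild-type CD80hi array (adjusted p up to 0.201). In CD80lo cells, the smallest p was that of Pax9, with -0.83 ± 0.39 (unadjusted p = 0.0509, adjusted p = 0.902). The difference of the CD80 contrast between genotypes was tested for each factor, and 0 of 7 passed in limma (0 at an unadjusted p under 0.05), with 1.3% of probe sets called, all of them lower. It was -1.38 ± 0.88 for Elf3 (adjusted p = 0.894) and -1.03 ± 0.62 for Ehf (0.859).

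Genes of the factors' pathways were read from lists. Of 10 genes listed as dependent on Foxn1, 6 were measured and tested. In CD80hi against CD80lo cells, 2 were lower and 2 higher in the knockout (median 1.10, against -0.03 over all probe sets), and 2 were lower and 1 higher in the wild type (median 0.35, against -0.04). The shares of all probe sets were 6.87% lower and 5.93% higher in the knockout, and 4.74% lower and 7.98% higher in the wild type. Cxcl12, a chemokine of cortical stroma, was lower in CD80hi cells, with -2.90 ± 0.59 in the knockout and -3.69 ± 0.59 in the wild type. In the same order, the lysosomal protease Ctsl was lower (-2.67 ± 0.49 and -2.44 ± 0.49) and the costimulatory receptor Cd40 higher (2.59 ± 0.31 and 1.85 ± 0.31). The wild-type Ctsl call was lost without wild-type CD80lo array 2 (adjusted p = 0.0502), and the knockout Cxcl12 call when the first CD80hi or the second CD80lo knockout array was omitted (up to 0.057). In mTEC against cTEC, 2 of the 6 were lower and 1 higher (median -1.33, against -0.03), beside 4.25% of all probe sets lower and 11.1% higher. Cxcl12 was at -4.40 ± 0.59 and Cd83, a surface protein that supports CD4 T cell selection, at -2.67 ± 0.35. In cTEC against myeloid cells, 4 of 6 were higher, against 9.02% of all probe sets, including the chemokine Ccl25 (4.50 ± 0.61, and 5.19 without macrophage array 1 or 3.80 without array 2) and the Kit ligand Kitl (3.31 ± 0.54).

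Of 20 pouch and parathyroid partners, 14 were measured and 11 tested. In CD80hi against CD80lo cells, 5 were lower in the knockout (median -0.97, against -0.03 over all probe sets, of which 6.87% were lower) and 3 in the wild type (median -0.66, against -0.04, with 4.74% lower). Fgfr2, a fibroblast growth factor receptor of epithelia, had -2.71 ± 0.35 in knockout and -2.83 ± 0.35 in wild-type cells. Pth, the parathyroid hormone, gave 3.3 and 2.4 in knockout CD80hi against 1454.7 and 516.8 in knockout CD80lo cells, and 12.9 and 18.1 in wild-type CD80hi against 595.3 and 321 in wild-type CD80lo cells. Wnt4, a signalling protein, was lower in knockout CD80hi cells (-3.47 ± 0.86), a call that ended (highest adjusted p 0.18) when the second CD80hi or the first CD80lo knockout array was omitted. In mTEC against cTEC, 1 of the 11 was higher and 1 lower, near the 11.1% and 4.25% of all probe sets.

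Of 20 genes listed as epidermal p63 targets, 17 were measured and 15 tested. In CD80hi against CD80lo cells, 6 were lower in the knockout (median -1.31, with 6.87% of all probe sets lower), and 6 were lower and 1 higher in the wild type (median -0.83, with 4.74% lower and 7.98% higher). The Notch ligand Jag2 had -4.24 ± 0.57 in knockout and -4.27 ± 0.57 in wild-type cells. The laminin chain Lamb3, a component of epithelial basement membrane, had -3.65 ± 0.70 in knockout and -2.46 ± 0.70 in wild-type cells. Col17a1, a hemidesmosome collagen, was higher in wild-type CD80hi cells (2.25 ± 0.44). Against myeloid cells, 11 of 15 were higher in mTEC and 10 of 15 in cTEC, against 17.1% and 9.02% of all probe sets. Among them were Perp, a desmosome protein (4.51 ± 0.42 and 5.02 ± 0.42), and Lamb3 (2.58 ± 0.61 and 5.40 ± 0.61). Without macrophage array 1, Perp was at 5.51 and Lamb3 at 6.08 in cTEC. The lowest cTEC values with single arrays left out were 4.52 for Perp and 4.72 for Lamb3.

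Among 10 tested genes of other epithelial transcription factors, 3 were higher in mTEC than in cTEC, against 11.1% of all probe sets. These were Foxa1, a forkhead factor (4.22 ± 0.51), Tfap2c, an AP-2 factor (3.62 ± 0.37) and Cdx1, an intestinal homeobox factor (3.48 ± 0.50). Foxa1 gave 135.6 and 232.4 in mTEC against 0.6 and 13 in cTEC, and its value lay between 3.36 and 5.08 when single arrays were left out. Of 10 tested ETS family genes besides Ehf and Elf3, Spib was higher in mTEC (4.74 ± 0.54) and Ets1 lower (-2.89 ± 0.49), 1 of 10 each way and near the shares of all probe sets (11.1% and 4.25%). The mean over all Spib probe sets gave 3.07, and that over all Ets1 probe sets -1.86. Erf, an ETS repressor, was lower in CD80hi than CD80lo cells, with -1.96 ± 0.36 in the knockout and -1.21 ± 0.36 in the wild type. It was 1 of the 10 in each genotype, with 6.87% of all probe sets lower in the knockout and 4.74% in the wild type. The wild-type Erf call was lost without any 1 of the 4 wild-type CD80-sorted arrays or either unfractionated mTEC array (adjusted p up to 0.26). Of 5 tested genes of the HoxA cluster and its group 3 paralogues, Hoxa2 was lower in CD80hi than CD80lo cells, with -1.35 ± 0.34 in the knockout and -1.26 ± 0.34 in the wild type. Leaving out any of the 4 wild-type arrays, or the second CD80hi or the first CD80lo array of the knockout, ended these calls (highest adjusted p 0.162). Of 6 other Pax genes measured, 2 were tested, and neither passed between mTEC and cTEC. Pax4 was higher in wild-type CD80hi than CD80lo cells (1.36 ± 0.42, adjusted p = 0.0486 from limma), a call lost in 14 of the 16 fits that left out 1 array (up to 0.237). Neither gene listed for the p53 family was measured. In the knockout, the CD80hi against CD80lo calls of Ctsl, Lamb3, Wnt4, Hoxa2 and Erf were also lost without both arrays numbered 1. That fit leaves 1 array in each knockout group, and its log2 values were -2.36, -3.72, -4.24, -1.36 and -1.68 in the same order.

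**Figure D4:**
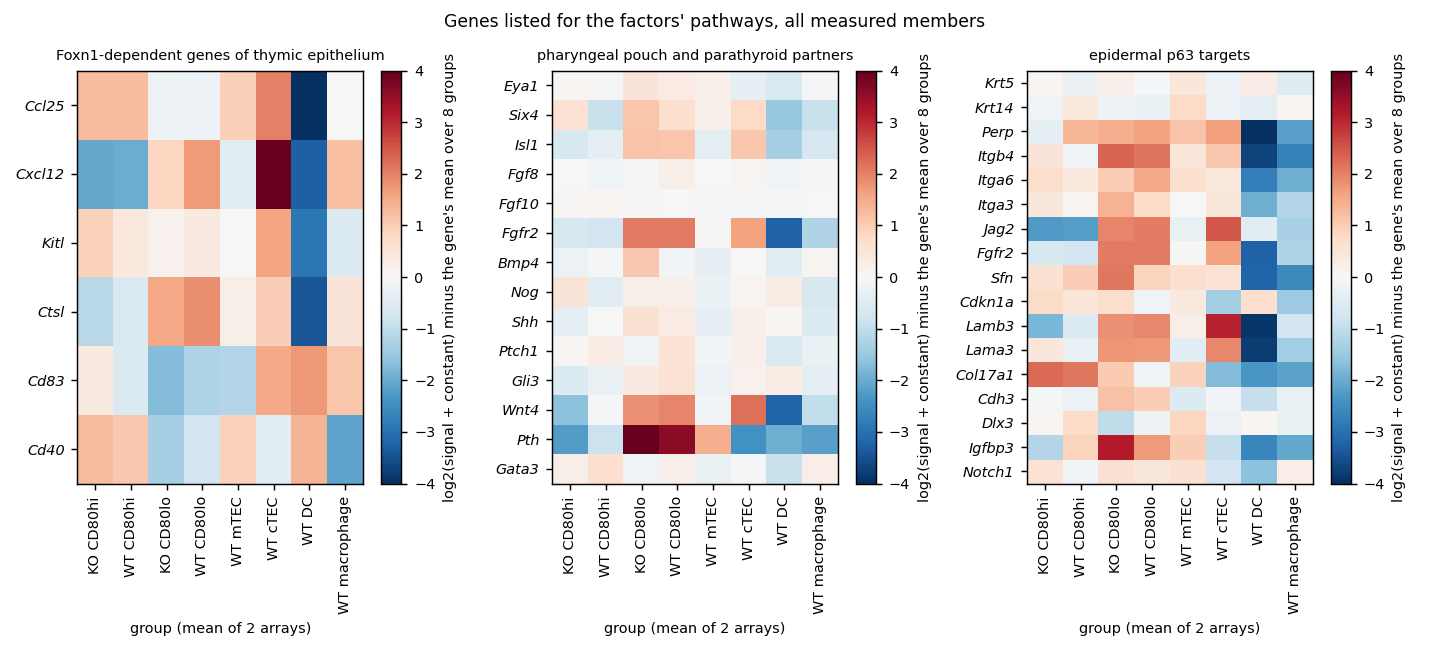
Mean log2(signal + 4.8) of each measured gene of 3 lists in the 8 groups, after subtraction of the gene's mean over the groups (colour scale from -4 to 4). Fgfr2, Jag2 and Lamb3 were lower in the CD80hi than in the CD80lo groups of both genotypes, and Cxcl12 was highest in cTEC.

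Patterns over the 8 group means were compared by Pearson r, a description over groups that share arrays and scaling. The genes most like each factor were picked from all tested genes by this r, so their high values follow from the pick. Among the members, Pax9 and Trp63 were most alike (r = 0.91), then Foxn1 and Trp63 (0.89) and Ehf and Elf3 (0.85), whereas Pax1 and Ehf had -0.11 and the paralogues Pax1 and Pax9 0.47. Among all tested genes, the pattern of Foxn1 was most like those of Pfn2, a profilin (0.98), Kitl (0.97) and Tmem41b (0.97). That of Pax1 was most like those of the phospholipase gene Plcd1 (0.996), the coat protein gene Copz2 (0.99) and the adhesion receptor gene Adgrg1 (0.98). Over the 16 arrays r was 0.97 for Plcd1, and 0.902, 0.867 and 0.755 for Pfn2, Kitl and Tmem41b. The genes most like Elf3 were Fhod3, Lama5 and Rtkn (0.99, 0.98 and 0.98, and 0.944, 0.977 and 0.938 over the 16 arrays). Those most like Ehf were Ephb3, Astn1 and Npdc1 (0.986, 0.982 and 0.975, and 0.844, 0.906 and 0.847 over the 16 arrays). Trp63 was followed most closely by Zfp93, the laminin chain Lamb1 and Dnajb4 (0.99, 0.99 and 0.98), with 0.748, 0.97 and 0.883 over the 16 arrays. Pax9 was followed by the desmosomal cadherin Dsc2, Gpc1 and Art3 (0.982, 0.977 and 0.975, and 0.951, 0.865 and 0.895 over the 16 arrays). For Hoxa3 they were Clk2, Il6st and Apoe (0.96, 0.96 and 0.95), and over the 16 arrays r was 0.53, 0.79 and 0.38. The probe sets of Zfp93, Lamb1 and Dsc2 carry a suffix that marks probes not unique to 1 transcript or chosen under relaxed rules.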

How the data were processed

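Affymetrix mouse arrays measured total RNA of 16 FACS-sorted samples in 8 groups of 2, per the labels. The deposited values are linear intensity, 1 per probe set and array, and each array's mean after trimming 2% at each end was 100.1. Which software the authors used is not given in the sources used here. No further scaling was applied, and no 2 arrays were identical. The number of arrays limits the precision.

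Signals were analysed as log2(signal + 4.8), the constant being their 20th percentile, so folds of low genes are understated. The 66 control probe sets and 3103 that did not exceed 17.3 on at least 2 arrays were left out, leaving 9319. The annotation gave 1 symbol for 10833 probe sets, several for 396 and none for 1193. Contrasts came from 1 limma model (3.58.1 in R 4.3.3) fitted by lmFit to the 16 arrays, with trended eBayes moderation. Tests were 2-sided, adjusted by Benjamini-Hochberg over the 9319, with a threshold of 0.05. Simulated data stood for wild-type CD80hi against CD80lo cells (9319 probe sets), with noise drawn independently for each array. Changes of 1, 2, 3 and 4 log2 units were planted in 50 probe sets each. Of these, 10%, 60%, 86% and 98% were recovered, with 4 false among 131 calls. The real comparison called 12.7% of probe sets, and same-numbered samples of some groups deviated together, so these rates need not hold there.

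The members and lists were chosen with earlier results of these data known. Besides the 7 factors, the text names the 3 genes most like each over the 8 group means, and up to 4 called genes per list and comparison with the smallest p, the brightest probe set standing for a gene. Igfbp3 and Klf5 follow this rule for the difference between genotypes. Same-numbered samples of the unfractionated groups deviated together (Pearson r from 0.279 to 0.526 over 6 pairs). The main model had no block for this, and a block by number among these groups was an alternative. Among the CD80-sorted groups r was 0.028 to 0.517. The value of 0.517 was that of knockout CD80hi with knockout CD80lo samples, and the other pairs reached at most 0.17. The main model did not pair these samples either, so its p-values for the knockout CD80 comparison ignore this shared deviation. Alternatives were quantile normalisation, constants of 1 and 17.3, no filter or a filter of 50, no trend, a replicate block, the compared groups alone, averaging the probe sets of a gene and each array left out. Leaving out both knockout arrays numbered 1, and dendritic cells in place of the myeloid mean, were added after seeing the data.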

Additional observations from a re-analysis of the deposited data

Results flagged for a closer look

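None of the 7 factors met a rule for a closer look, and 2 genes of the lists did, because their CD80hi against CD80lo difference itself differed between genotypes by limma's interaction term. Igfbp3, from the p63 list, gave 6.5 and 22.5 in knockout CD80hi against 390 and 316.7 in knockout CD80lo cells, and 61.9 and 75 in wild-type CD80hi against 151.9 and 102.3 in wild-type CD80lo cells. The difference of its log2 fold changes, knockout minus wild type, was -3.51 ± 0.62 (adjusted p = 0.0124). It was lost without knockout CD80lo array 1, wild-type CD80hi array 1 or 2 or wild-type CD80lo array 2 (adjusted p up to 0.0812), and without both knockout arrays numbered 1 (-2.73, adjusted p = 0.132).

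Klf5, a Krüppel-like factor of epithelia, gave 27.5 and 19 in knockout CD80hi against 241.4 and 140.9 in knockout CD80lo cells, and 70.1 and 53.7 in wild-type CD80hi against 75.7 and 49.3 in wild-type CD80lo cells. The difference was -2.78 ± 0.53 (adjusted p = 0.0185). It was lost without knockout CD80hi array 2, knockout CD80lo array 1, either wild-type CD80hi array or wild-type CD80lo array 2 (adjusted p up to 0.123), with a constant of 1 (0.0616) and without both knockout arrays numbered 1 (0.111).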

How the results depend on the processing

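With 2 arrays a group, the counts move with the setting. In wild-type CD80hi against CD80lo cells, where 1 of the 7 factors passed, 2 passed with quantile normalisation, a constant of 17.3, no filter, no trend, the replicate block over all arrays, the mean over probe sets, or both knockout arrays numbered 1 left out. With only the compared groups 3 passed. In knockout CD80hi against CD80lo cells 0 passed without both knockout arrays numbered 1, against 1. In cTEC against myeloid cells 2 passed with the filter at 50, which removes the dim factors, against 4. Of all probe sets, those called numbered 2456 with only the compared groups in wild-type CD80hi against CD80lo cells (1186 in the model over all arrays), 629 in knockout CD80hi against CD80lo (1193), 16 in knockout against wild-type CD80lo (30), 77 for the difference between genotypes (121) and 905 in cTEC against myeloid cells (1458). A constant of 1 gave 180 in knockout against wild-type CD80hi cells (284), 18 in CD80lo cells and 44 for the difference, and a constant of 17.3 gave 47 in CD80lo cells and 216 for the difference. Without both knockout arrays numbered 1 the counts were 523 in knockout CD80hi against CD80lo cells, 151 between genotypes in CD80hi cells and 42 for the difference. The replicate block gave 51 between genotypes in CD80lo cells. With that block over all arrays Hoxa3 passed in wild-type CD80hi against CD80lo cells (adjusted p = 0.044) and Elf3 in cTEC against myeloid cells (adjusted p = 0.00535), and no other factor's call changed. Cd40, 1.28 in mTEC against myeloid cells, reversed to -0.46 against dendritic cells alone. The causes of these moves were not tested.

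With each array left out in turn, the factors called ranged from 0 to 2 in CD80hi against CD80lo cells of either genotype, 0 to 0 between genotypes and for the difference, 2 to 3 in mTEC against cTEC, 3 to 6 in mTEC and 4 to 5 in cTEC against myeloid cells. Probe sets called ranged from 740 to 1347 and 623 to 1325 in knockout and wild-type CD80hi against CD80lo cells, 78 to 307 and 8 to 33 between genotypes in CD80hi and CD80lo cells, and 35 to 119 for the difference. They ranged from 858 to 1578 in mTEC against cTEC, and from 1518 to 2424 and 804 to 1527 in mTEC and cTEC against myeloid cells. Quantile normalisation moved the median of all probe sets from -0.05 to 0.06 between genotypes in CD80hi cells, from -0.03 to -0.15 in mTEC against cTEC and from 0.04 to -0.16 in mTEC against myeloid cells.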
